A study of Mus musculus with 4 samples.

Results

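The 24 collagen genes described here were those of the mouse array whose name has the form of a collagen chain (Col, a type number, the letter a, a chain number) and whose brightest probe was well above background on each of the 4 arrays. The array carried 43 collagen genes in all, of which 19 missed this condition, 15 of them on every array. The cells were 3T3-L1, a line of mouse fibroblasts that turn into adipocytes when induced. Once differentiated, the cells were kept for 7 days with daidzein (25 uM), a soy isoflavone, with PT (100 ug/ml), an extract made from pig testis, with daidzein+PT at the same amounts, or with PBS, the control. Total RNA of each group was labelled with Cy3 and read on 1 single-colour Agilent array, so each group has 1 value per gene and no replicate.

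Collagens are proteins of the extracellular matrix in which 3 chains wind into a triple helix. The fibrillar types form the tensile fibrils of connective tissue, type IV forms the sheet-like network of basement membranes, type VI forms beaded microfilaments, and the FACIT types sit on the surface of fibrils. Each mature adipocyte is wrapped in a basement membrane, and differentiating 3T3-L1 cells are known to replace a fibroblast matrix with one in which type IV collagen is prominent.

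Values are given as scaled signal, the probe's processed intensity divided by the 75th percentile of intensities on its array (405 for daidzein, 419 for PT, 361 for daidzein+PT and 371 for PBS). Differences are in log2 units. Probes differ in how brightly they report an RNA, so the scaled signal of a gene can be set against the same gene on another array and not against another gene. The design gives the daidzein effect in a pair of comparisons with no array in common, daidzein over PBS and daidzein+PT over PT, and likewise the PT effect in PT over PBS and daidzein+PT over daidzein, so that each treatment is seen alone and on top of the other. The difference between the pairs (the interaction) gave the only measure of spread between arrays. Over all genes it corresponded to an SD of a log2 difference of 0.11 in the 6086 brightest genes (14 of the collagen genes), 0.14 in the 6084 of middle brightness (6) and 0.33 in the 6086 dimmest (4). All 4 arrays shared 1 slide. Row 1 held daidzein in column 4 and PBS in column 3, and row 2 held daidzein+PT in column 2 and PT in column 1. Slide row and PT thus cannot be told apart, and a step of 1 column is part of each daidzein difference.

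**Figure D1:**
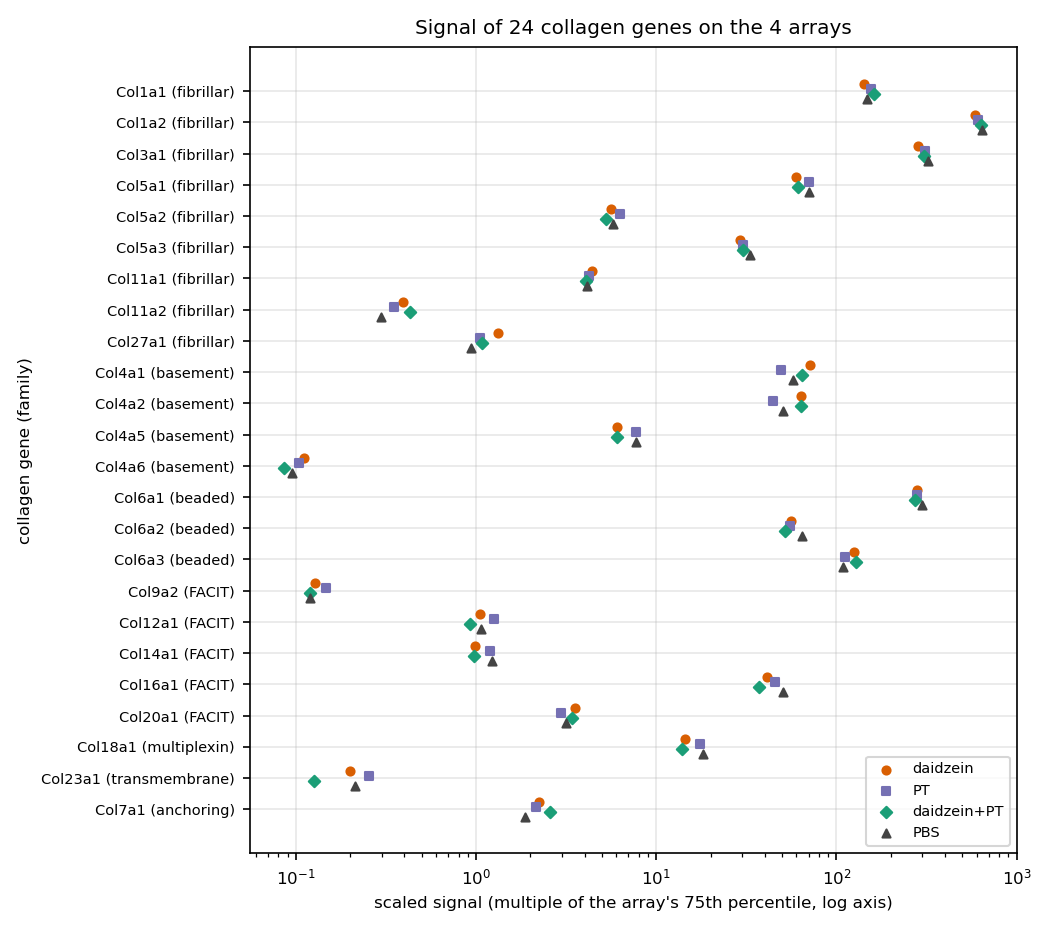
Scaled signal (multiple of the 75th percentile of the array, log axis) of the 24 collagen genes, grouped by family, with 1 point for each of the daidzein, PT, daidzein+PT and PBS arrays and no error bars because each group has 1 array. The 4 points of most genes lie close together, and in Col4a1 and Col4a2 both daidzein-treated arrays lie to the right of the PT and PBS arrays.

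Most collagen genes differed little between arrays. Daidzein over PBS ran from -0.34 to 0.50 with a median of -0.04 over the 24 genes, against a median of -0.03 over all 18256 genes well above background on all 4 arrays. Daidzein+PT over PT ran from -1.01 to 0.52 with a median of -0.04 (all genes -0.01). PT over PBS ran from -0.23 to 0.30 (median -0.01, all genes -0.03), daidzein+PT over daidzein from -0.66 to 0.20 (median -0.04), and daidzein+PT over PBS from -0.76 to 0.53 (median -0.10, all genes -0.04). No collagen gene was at least 1.5-fold higher or lower in daidzein over PBS, where 5.29% of all genes were, or in PT over PBS, where 2.83% were. Col23a1 was the 1 collagen gene past 1.5-fold in daidzein+PT over PBS (8.74% of all genes), in daidzein+PT over PT (8.23%) and in daidzein+PT over daidzein (3.51%), lower in each, and it is among the 4 dim genes. The medians moved with the normalization, and that of PT over PBS changed sign, to 0.05 under cyclic loess (all genes 0.01).

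An additive model with daidzein and PT as factors was fitted to all 18256 genes with limma. It averages both pairs of a treatment, and its 1 residual degree of freedom takes any interaction as error. For daidzein, 4 of the 24 collagen genes rose (adjusted p under 0.05), the basement membrane genes Col4a1 and Col4a2, the anchoring fibril gene Col7a1 and the fibrillar gene Col27a1. This is 16.7% of the members, against 9.91% of all genes. Another 5 fell, Col4a5, Col14a1, Col16a1, Col18a1 and Col23a1, which is 20.8% of the members against 8.41% of all genes. Among the 6086 brightest genes, 2 of 14 collagen genes rose (14.3%, against 13% of the 6086) and 3 of 14 fell (21.4%, against 8.82%). For 19 of 24 genes (79.2%) both daidzein pairs had the same sign, as they did for 68% of all genes. These calls and each SE given below rest on the prior that limma draws from all genes of similar brightness (568.8 prior degrees of freedom). An SE thus says little about how far the pairs of that gene differ. Without the brightness trend 0 of the 24 were called, where 1.91% of all genes rose and 0.986% fell. The 9 genes then had adjusted p from limma of 0.108 to 0.366. An unadjusted p under 0.05 was found for 15 of 24 with the trend, against 27.2% of all genes, and for 8 of 24 without it, against 20.8%.

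**Figure D2:**
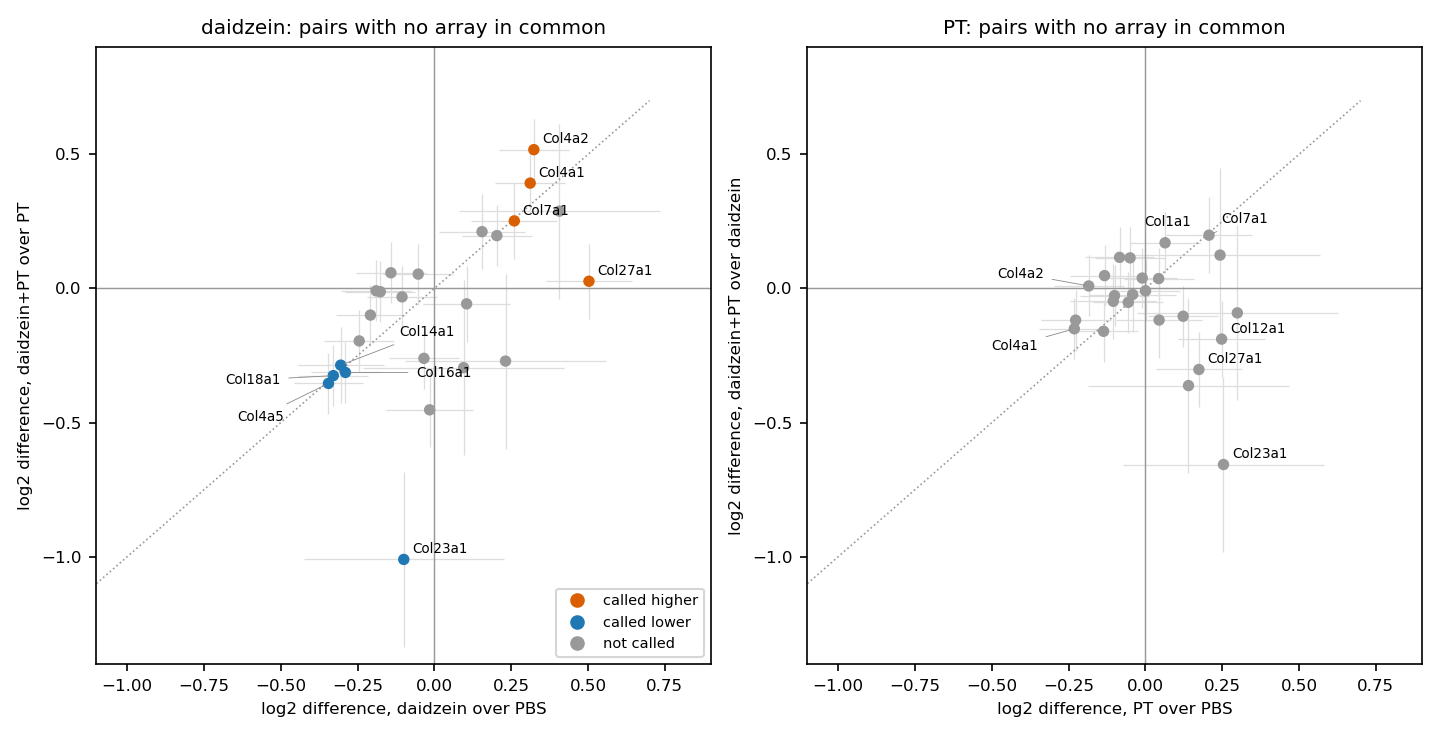
Log2 differences of the 24 collagen genes in both pairs of each treatment, daidzein over PBS against daidzein+PT over PT on the left and PT over PBS against daidzein+PT over daidzein on the right, with bars of 1 SD of a log2 difference for genes of the same brightness and a dotted line of equal values. For daidzein, Col4a1 and Col4a2 lie at the upper right and Col4a5, Col14a1, Col16a1 and Col18a1 lie together at the lower left, while for PT no gene was called and most lie near 0.

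Col4a1 and Col4a2, whose products join as 2 alpha1 chains and 1 alpha2 chain in the network of nearly all basement membranes, rose with daidzein. Col4a1 had a scaled signal of 71.6 with daidzein, 49.1 with PT, 64.5 with daidzein+PT and 57.7 with PBS. Both daidzein-treated arrays were above both arrays without daidzein. With 2 arrays on each side, such a separation, here and in the genes below, can also arise with no effect. Its share over all genes was not counted. The log2 difference of Col4a1 was 0.31 for daidzein over PBS and 0.39 for daidzein+PT over PT. Their mean was 0.35 ± 0.09 (SE), or 1.28-fold (limma, adjusted p = 0.000474). Col4a2 had 63.4 with daidzein, 44.6 with PT, 63.8 with daidzein+PT and 50.6 with PBS, again with no overlap between arrays with and without daidzein. Its differences were 0.32 and 0.52, a mean of 0.42 ± 0.08 (SE), or 1.34-fold (limma, adjusted p = 1.21e-05). Both calls held under 6 of the 7 alternative fits and were lost without the brightness trend (limma, adjusted p = 0.123 for Col4a1 and 0.108 for Col4a2). The PT differences went the other way for Col4a1, at -0.23 over PBS and -0.15 over daidzein (limma, adjusted p = 0.293 for their mean of -0.19). For Col4a2 they were -0.18 and 0.01.

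The Col4a1 probe was printed as 10 spots on each array, which shows the error of the spots apart from that of the cultures. The SD of their log2 values was 0.05 on the daidzein array, 0.05 on PT, 0.04 on daidzein+PT and 0.04 on PBS. Each of the 10 daidzein spots, from 67.7 to 77.2, was brighter than each of the 10 PBS spots, from 55.0 to 59.4. Each daidzein+PT spot (61.5 to 66.9) was likewise brighter than each PT spot (46.2 to 51.0). Spots of an array share its RNA sample, so they are no replicates of a treatment.

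**Figure D3:**
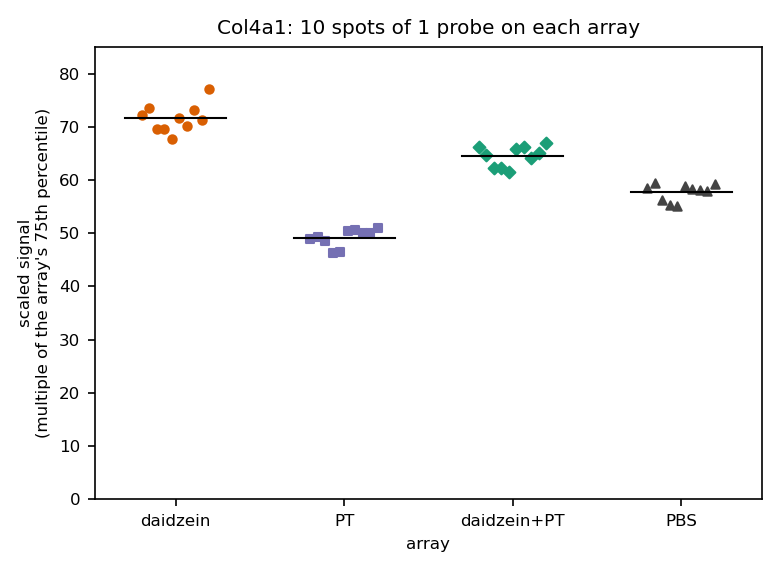
Scaled signal of the 10 spots of the Col4a1 probe on each of the daidzein, PT, daidzein+PT and PBS arrays, with the line at the mean of the 10 spots. The spots of the 4 arrays do not overlap, and the means were 71.6, 49.1, 64.5 and 57.7.

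The 60-base Col4a1 probe lies at chr8:11199009-11199068 (mm9, minus strand) and the Col4a2 probe at chr8:11448840-11448899 (mm9, plus strand). Their place in the transcripts was not analysed here. The genes are neighbours on opposite strands, transcribed away from a common start region. Their promoters are shown because these 2 neighbouring genes moved together. Each window runs from 250 bases before to 50 bases after the gene start in RefSeq (GRCm38.p6), and the capitals mark the 78 bases that lie in both windows and read as reverse complements. The Col4a1 window is chr8:11312777-11313076 (minus strand) and the Col4a2 window chr8:11312555-11312854 (plus strand). The annotated starts are 21 bases apart, at 11312826 for Col4a1 and 11312805 for Col4a2. Each start thus lies within the first bases of the other gene, so the annotated genes overlap there.
Col4a1: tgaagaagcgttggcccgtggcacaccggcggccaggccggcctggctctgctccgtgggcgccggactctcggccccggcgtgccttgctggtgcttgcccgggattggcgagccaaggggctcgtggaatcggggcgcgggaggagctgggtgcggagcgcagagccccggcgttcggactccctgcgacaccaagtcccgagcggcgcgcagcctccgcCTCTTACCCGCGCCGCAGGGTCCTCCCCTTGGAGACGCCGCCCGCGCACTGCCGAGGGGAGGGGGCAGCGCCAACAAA
Col4a2: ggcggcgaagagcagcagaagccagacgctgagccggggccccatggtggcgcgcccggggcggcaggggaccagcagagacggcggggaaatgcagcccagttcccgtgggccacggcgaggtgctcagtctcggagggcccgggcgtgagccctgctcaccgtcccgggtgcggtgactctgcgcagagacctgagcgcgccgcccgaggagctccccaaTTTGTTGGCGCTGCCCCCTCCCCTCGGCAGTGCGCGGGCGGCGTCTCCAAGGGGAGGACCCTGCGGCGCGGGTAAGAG
GC content was 74% in the Col4a1 window and 73.7% in the Col4a2 window, against a median of 52.7% over all 32851 windows in the table. Searched on both strands, both windows hold CCAAT, which 37.4% of all windows hold, and GGGCGG, which 35.7% hold. Neither holds TATAAA, found in 13.6% of windows. Of the 22 windows available for 20 of the 24 collagen genes, 9 hold CCAAT, 17 hold GGGCGG and 2 hold TATAAA. These matches describe the letters only.

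Col4a5 and Col4a6 are another head-to-head pair of type IV genes, on the X chromosome. Their chains assemble into a network of alpha5 and alpha6 chains in a smaller set of basement membranes. Col4a5 fell with daidzein, opposite to Col4a1 and Col4a2. It had 6.06 with daidzein, 7.70 with PT, 6.03 with daidzein+PT and 7.70 with PBS, so the arrays with daidzein lay below the arrays without it. The mean difference of -0.35 ± 0.07 (SE) is 0.785-fold (limma, adjusted p = 2.41e-05, and 0.119 without the trend). Its probe lies at chrX:138123547-138123606 (mm9, plus strand). Col4a6 was dim, at 0.111, 0.104, 0.0865 and 0.0947 for daidzein, PT, daidzein+PT and PBS, and its daidzein pairs had opposite signs (0.23 and -0.27, within the SD of 0.33). The promoter windows of this pair do not overlap. They lie 842 bases apart, with a GC content of 52.7% for Col4a5 and 48.3% for Col4a6. Of the other type IV genes, Col4a3 was well above background on no array and Col4a4 on daidzein, PT and PBS.

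The fibrillar chains that make up most of connective tissue fibrils did not pass the test. Col1a1 and Col1a2 encode the chains of type I collagen. Col1a1 had 143 with daidzein, 155 with PT, 161 with daidzein+PT and 148 with PBS, with daidzein differences of -0.05 and 0.05. Col1a2 had 584, 608, 633 and 644 on the same arrays, with differences of -0.14 and 0.06 (SE of their mean 0.15). For both genes the arrays with and without daidzein overlapped. Col3a1, the type III chain that shares fibrils with type I, had 284 with daidzein, 309.9 with PT, 307 with daidzein+PT and 321 with PBS. Its daidzein differences were -0.18 and -0.01 (limma, adjusted p = 0.703).

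The type V chains, which help start fibrils and limit their width, lay below 0 without passing the test. Col5a1 had 59.8 with daidzein, 70.3 with PT, 61.4 with daidzein+PT and 70.8 with PBS. The arrays did not overlap by daidzein, and the mean of -0.22 ± 0.09 (SE) missed the threshold (limma, adjusted p = 0.0585). It passed under normexp, quantile normalization and cyclic loess, with adjusted p of 0.0322, 0.0150 and 0.0264. Col5a2 had 5.62, 6.26, 5.23 and 5.75 for daidzein, PT, daidzein+PT and PBS, with differences of -0.03 and -0.26. Col5a3 had differences of -0.19 and -0.01. Col5a2 lies beside Col3a1 on chromosome 1, and the mean daidzein differences of these neighbours were -0.15 and -0.09.

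Among the other fibrillar genes, those of types XI and XXVII are best known from cartilage. Col11a1 had daidzein differences of 0.10 and -0.06. Col11a2, a dim gene, had 0.394 with daidzein, 0.351 with PT, 0.429 with daidzein+PT and 0.297 with PBS, with a mean of 0.35 ± 0.14 (SE) that missed the threshold (limma, adjusted p = 0.0788). Col27a1 was called higher with daidzein from unequal pairs. It had 1.32 with daidzein, 1.05 with PT, 1.07 with daidzein+PT and 0.933 with PBS, so daidzein over PBS was 0.50 and daidzein+PT over PT was 0.03. The mean of 0.26 ± 0.10 (SE) had an adjusted p of 0.0458 (limma), and the call held under 1 of the 7 alternative fits. Its probe lies at chr4:62995485-62995544 (mm9, plus strand). Of the 11 fibrillar genes on the array, 9 were measured, and Col2a1 and Col24a1 were well above background on no array.

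The 3 measured chains of type VI collagen, abundant in adipose tissue, did not pass the test for either treatment. Col6a3, whose carboxy-terminal fragment endotrophin is released by adipocytes, had 125 with daidzein, 112 with PT, 129 with daidzein+PT and 109 with PBS. The arrays with daidzein lay above those without it, with differences of 0.20 and 0.20 (SE of the mean 0.10, limma, adjusted p = 0.159). It passed under quantile normalization and cyclic loess (adjusted p = 0.0321 and 0.0468). Col6a1 had 279 with daidzein, 279.7 with PT, 274 with daidzein+PT and 299.9 with PBS. Col6a2 had 56.0, 55.3, 51.6 and 64.7 on the same arrays, and PBS was the brightest array for both of these neighbours on chromosome 10. The other Col6a2 probe gave a mean daidzein difference of 0.04, against -0.15 for the probe used. The mean over both probes was -0.06, and under quantile normalization Col6a2 passed as lower (-0.18, limma, adjusted p = 0.0468).

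FACIT collagens bind the surface of fibrils. Of the 5 measured members, 2 fell and 0 rose with daidzein, where 8.41% of all genes fell and 9.91% rose. Col16a1 had 41.3 with daidzein, 45.9 with PT, 36.9 with daidzein+PT and 50.4 with PBS. The arrays with daidzein were both below those without it, with differences of -0.29 and -0.31 and a mean of -0.30 ± 0.08 (SE, limma, adjusted p = 0.00196, and 0.152 without the trend). All 3 of its measured probes lay below 0 on average, at -0.30, -0.29 and -0.20. Col14a1, a fibril-surface chain of skin and tendon, had 0.992, 1.19, 0.977 and 1.23 for daidzein, PT, daidzein+PT and PBS. Its differences were -0.30 and -0.29 (limma, adjusted p = 0.0204), and the call was lost under quantile normalization, cyclic loess and without the trend, with adjusted p of 0.0616, 0.0789 and 0.157. The Col16a1 probe lies at chr4:129776333-129776392 and the Col14a1 probe at chr15:55347733-55347792 (both mm9, plus strand).

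The other 3 FACIT genes did not pass the test. Col12a1 had 1.05 with daidzein, 1.26 with PT, 0.921 with daidzein+PT and 1.06 with PBS. Its daidzein difference was -0.02 over PBS and -0.45 over PT. Col20a1 had daidzein differences of 0.15 and 0.21 (limma, adjusted p = 0.0869), and its other probe gave a mean of 0.21 against 0.18. Col9a2, a dim gene of a type known from cartilage, had 0.09 and -0.30.

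Col18a1, the multiplexin of basement membranes whose end fragment is endostatin, fell with daidzein. It had 14.4 with daidzein, 17.4 with PT, 13.9 with daidzein+PT and 18.1 with PBS, with no overlap between arrays with and without daidzein. The differences were -0.33 and -0.32, and the mean of -0.33 ± 0.07 (SE) is 0.797-fold (limma, adjusted p = 0.000101, and 0.134 without the trend). Its other probe gave a mean of -0.34. The probe used lies at chr10:76515790-76515849 (mm9, minus strand). Col15a1, the other multiplexin, was well above background on no array.

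Col7a1, whose product forms the anchoring fibrils below epithelia, had its lowest signal on the PBS array. It had 2.24 with daidzein, 2.16 with PT, 2.57 with daidzein+PT and 1.87 with PBS. Daidzein gave 0.26 and 0.25, a mean of 0.26 ± 0.08 (SE), or 1.19-fold (limma, adjusted p = 0.0156). The call was lost under normexp, quantile normalization, cyclic loess and without the trend, with adjusted p of 0.0518 to 0.194. PT gave 0.21 and 0.20, and their mean of 0.20 had the lowest adjusted p of any collagen gene for PT (limma, 0.211). Its probe lies at chr9:108886861-108886920 (mm9, plus strand).

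Col23a1, a transmembrane collagen, was lowest with both treatments together. It had 0.200 with daidzein, 0.255 with PT, 0.127 with daidzein+PT and 0.214 with PBS. Daidzein over PBS was -0.10 and daidzein+PT over PT -1.01, with a mean of -0.55 ± 0.19 (SE, limma, adjusted p = 0.0211). Its other measured probe gave -0.46 and -0.44, a more even pair of differences. Under normexp the mean was -0.27, and the call held under 2 of the 7 alternative fits. The probe used lies at chr11:51394105-51394164 (mm9, plus strand). No collagen gene had an interaction of larger size (-0.91). Next below 0 came Col4a6 (-0.50) and Col27a1 (-0.48). The most positive were Col1a2 (0.20), Col4a2 (0.19) and Col5a3 (0.18). The median interaction was near 0 (all genes 0.04), with 12 collagen genes above 0 and 12 below. Over all genes 57.6% were above 0.

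With PT, 0 of the 24 collagen genes rose and 0 fell in the limma fit, where 3.37% of all genes rose and 1.01% fell. An unadjusted p under 0.05 was found for 3 of 24, against 11.9% of all genes, and without the trend for 0 of 24, against 8.54%. Both PT pairs had the same sign in 11 of 24 collagen genes (45.8%), against 55.4% of all genes. Over all genes 615 rose and 185 fell with PT, against 152 and 20 under quantile normalization and 151 and 14 under cyclic loess.

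Genes that fold, cut, link or bind collagen were read from 5 lists. Of 61 measured genes, 21 fell and 2 rose with daidzein, where 8.41% of all genes fell and 9.91% rose. Without the trend 3 fell and 2 rose, where 0.986% of all genes fell and 1.91% rose. The mean of both daidzein pairs had a median of -0.02 over all genes. Among 18 genes of folding and modification in the endoplasmic reticulum, 4 fell, the prolyl hydroxylase subunits P4ha1 (-0.23) and P4ha2 (-0.28), the lysyl hydroxylase Plod1 (-0.35) and the galactosyltransferase Glt25d1 (-0.21), and the list median was -0.13. The lowest of that list, P4ha3, had -0.36 and did not pass (limma, adjusted p = 0.176), and the highest, Plod3, had 0.05. Without the trend 0 of the 18 were called.

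Of 11 genes of procollagen cleavage and cross-linking, 6 fell and 1 rose with daidzein (all genes 8.41% and 9.91%), with a median of -0.26. The proteinases Bmp1 (-0.31), Adamts2 (-0.32) and Adamts14 (-0.51) remove the end pieces of procollagens, and Lox (-0.26), Loxl3 (-0.28) and Loxl4 belong to the lysyl oxidases that cross-link collagen. Loxl4 had 0.403 with daidzein, 0.624 with PT, 0.326 with daidzein+PT and 0.704 with PBS, a mean of -0.87 ± 0.13 (SE, limma, adjusted p = 1.14e-09). Both arrays with daidzein were below both without it. Tgm2, a transglutaminase that cross-links matrix and cell proteins, went the opposite way. It had 0.462 with daidzein, 0.318 with PT, 0.975 with daidzein+PT and 0.233 with PBS, with the PBS array lowest and the array of both treatments highest. Daidzein gave a mean of 1.30 (limma, adjusted p = 2.52e-18) and PT a mean of 0.76 (adjusted p = 2.7e-06). Loxl4 and Tgm2 were the genes of this list called for daidzein without the trend.

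Of 13 proteoglycans and glycoproteins that accompany fibrils, 7 fell with daidzein and 0 rose (all genes 8.41% and 9.91%), with a median of -0.19. Lum (lumican), a small proteoglycan that regulates fibril width, had 6.16 with daidzein, 15.7 with PT, 8.58 with daidzein+PT and 12.2 with PBS, so both arrays with daidzein lay below both without it. It fell with daidzein by 0.93 (limma, adjusted p = 6.93e-32) and rose with PT by 0.42 (adjusted p = 4.81e-07). Dpt (dermatopontin), which binds decorin and collagen, had 1.22, 1.91, 1.25 and 2.41 on the same arrays, with a mean daidzein difference of -0.80 (limma, adjusted p = 3.72e-16). Ogn (-0.50), Thbs2 (-0.37), Tnxb (-0.33), Aspn (-0.31) and Bgn (-0.19) also fell, and Fmod, the highest, had 0.15. Without the trend Lum was the 1 gene of this list called.

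Of 8 collagen receptors, 1 rose with daidzein and 0 fell (all genes 9.91% and 8.41%). It was Itga11, the integrin chain that binds fibrillar collagen (0.55, limma, adjusted p = 0.0151), with unequal pairs of 0.18 and 0.92. Itga1, the integrin chain known for binding type IV collagen, had the highest mean, 0.63, from dim signals of 0.0971 with daidzein, 0.0628 with PT, 0.0934 with daidzein+PT and 0.0601 with PBS. It did not pass the test (limma, adjusted p = 0.106), and without the trend it was the 1 receptor called. The lowest, Lair1, had -0.25. Ddr2, a receptor kinase for fibrillar collagen, fell with PT (-0.24, limma, adjusted p = 0.0278).

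Of 11 basement membrane partners of type IV collagen, 4 fell with daidzein and 0 rose (all genes 8.41% and 9.91%), with a median of -0.17. These were the laminin chains Lama5 (-0.63) and Lama2 (-0.55) and the proteoglycans Hspg2 (perlecan, -0.27) and Agrn (agrin, -0.22). Lama5 had 0.777 with daidzein, 1.33 with PT, 0.834 with daidzein+PT and 1.16 with PBS, and it was the 1 partner called without the trend. Lama4, the laminin chain named as the highest of the list, had 0.02.

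**Figure D4:**
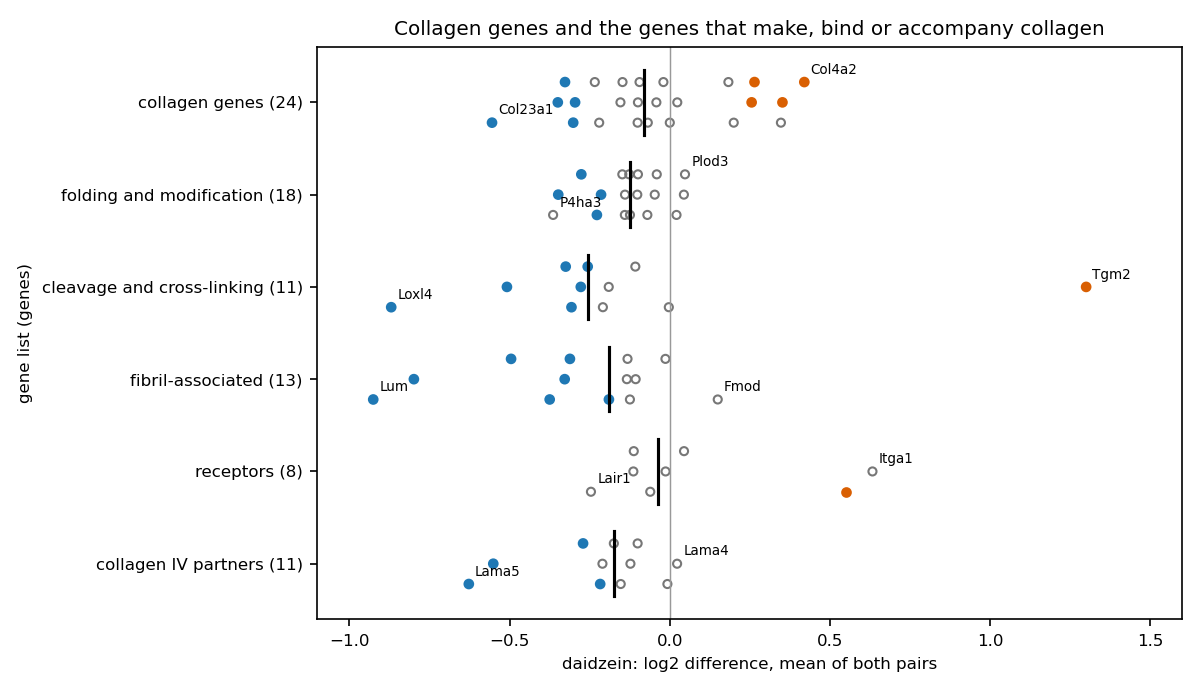
Mean log2 difference of both daidzein pairs for the 24 collagen genes and for 5 lists of genes that make, bind or accompany collagen (number of genes in brackets), with filled points for genes called by limma (orange higher, blue lower), open points for the others and a bar at each median. The filled points of the folding, fibril-associated and collagen IV partner lists are all below 0, while the collagen genes have filled points on both sides.

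The RNA came from whole cultures, so more cells of a type and more RNA per cell cannot be told apart. The listed markers of mature adipocytes moved with daidzein and with PT. Their summed scaled signal was 423 with daidzein, 155 with PT, 692 with daidzein+PT and 72.8 with PBS. All 5 measured of 6 (Adipoq, Plin1, Cd36, Fabp4 and Cfd) rose with each treatment in the limma fit, and Lep was well above background on no array. Over all genes, 9.91% rose and 8.41% fell with daidzein, and 3.37% rose and 1.01% fell with PT. Of 6 preadipocyte and fibroblast markers, 5 fell with daidzein. For PT 0 of the 6 were called, which says little where so few of all genes were. Their sums were 419.8, 548, 428 and 564 for daidzein, PT, daidzein+PT and PBS. Of 5 myofibroblast and smooth muscle markers, 3 were measured, with sums of 25.6, 21.2, 25.9 and 22.3 and Cnn1 not well above background. Acta2 (0.25) and Des (1.14) rose with daidzein, and Tagln (-0.06) was not called. Des was dim, at 0.119, 0.0816, 0.199 and 0.0599 for daidzein, PT, daidzein+PT and PBS. Macrophage markers (3 of 5 measured) had sums of 28.5, 29.7, 29.7 and 31.0, with Ptprc and Emr1 not well above background on any array. Endothelial markers (2 of 4) had 10.3, 10.6, 11.0 and 11.4, with Cdh5 and Tek not well above background. Chondrocyte and osteoblast markers (1 of 4) had 3.23, 2.84, 2.77 and 3.15, with Acan, Bglap and Ibsp not well above background. None of the 6 measured members of these last lists was called for daidzein or PT. Each sum covers all listed genes, dim ones too, and mostly follows its brightest probe. With daidzein, Dlk1 gave 348 of the preadipocyte sum of 419.8, Itgam 26.1 of the macrophage sum of 28.5 and Kdr 10.2 of the endothelial sum of 10.3. Without the trend, daidzein calls were all 5 adipocyte markers, Ly6a among the preadipocyte markers and Des, where 1.91% of all genes rose and 0.986% fell. The part of these markers in the collagen differences was not tested.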

How the data were processed

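RNA of 4 groups was read on 1 array each. The scanner files hold a processed spot intensity that Agilent Feature Extraction corrected for background within the array, with its flags, per the file headers. The headers give version 10.7.1.1, the submitters' processing notes 9.5.1.1. The series table holds a deposited intensity, whose sorted columns differed by at most 0.0474%, and was used only as an alternative.

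Control and outlier spots (106 to 173 per array) were left out. Signals were divided by the array's 75th percentile, put on the log2 scale and averaged over spots of a probe, and the probe with the highest mean stood for a gene. Each array had 59305 non-control spots for 55681 probes, of which 49.7% to 51.4% were well above background and 0 saturated. Positions are those of the files (mm9). The additive fit used limma 3.58.1 (lmFit, eBayes with trend, Benjamini-Hochberg) in R 4.3.3 and was tested on simulated data. Without replicates the 5 single comparisons carry no test, and the number of arrays limits precision. P-values and SEs measure only the spread between these 4 samples, pooled over genes, which may be technical. Named genes were all collagen genes, and of each list those at least 1.5-fold in both pairs of a treatment, the highest and the lowest, and those called. The members, lists and tests were chosen with earlier results of these data known. Alternatives were normexp (offset 50), quantile normalization, cyclic loess, median scaling, the series table, the mean over probes, no filter, no trend and a filter on at least 2 arrays.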

Additional observations from a re-analysis of the deposited data

Results flagged for a closer look

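Col12a1 and Col27a1 are given here because PT went opposite ways without and with daidzein, by more than the SD of 0.14 for genes of their brightness. For Col12a1, PT over PBS was 0.25 and daidzein+PT over daidzein was -0.19. For Col27a1 the values were 0.17 and -0.30. With 1 array per group this difference was not tested.

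Col8a2 and Col25a1 lie outside the 24 genes because each was well above background on a single array. The direction of each bound follows from that choice, and each rests on 1 dim reading. Col8a2, a chain of a network-forming collagen, had 0.0108 with daidzein, 0.0987 with PT, 0.0110 with daidzein+PT and 0.0137 with PBS. It was not well above background with PBS, and the bound was 2.55-fold higher with PT than with PBS. Against daidzein+PT, where it was not well above background either, the bound was 2.01-fold higher with PT alone. Col25a1, a transmembrane collagen, had a bound of 1.47-fold higher with daidzein than with PBS. Its signal was 0.0567 with daidzein, 0.0313 with PT, 0.0118 with daidzein+PT and 0.0261 with PBS. The other daidzein pair, daidzein+PT over PT, thus went the opposite way, with neither of its arrays well above background. Bounds set the brighter array against the dimmest signal well above background on the other array, or the gene's own signal there, whichever is brighter. That dimmest signal is no strict limit, so the bounds are approximate. On daidzein+PT it was 0.0491, and Col4a4 was not well above background there at 0.0540.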

How the results depend on the processing

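The limma counts of collagen genes changed by daidzein, 4 higher and 5 lower, depended on the brightness trend. Without it 0 rose and 0 fell, and over all genes 349 rose and 180 fell, against 1809 and 1536 with it. Under normexp 2 rose (1416 of all genes). Over all genes, 880 fell under cyclic loess. For PT, 236 of all genes rose and 52 fell under normexp, 291 rose and 58 fell when probes were averaged, and 0 rose and 0 fell without the trend, against 615 and 185, while 0 collagen genes were called for PT under each of the 7 alternative fits. The median difference of the collagen genes in daidzein+PT over PT ran from -0.03 with probes averaged to -0.10 under quantile normalization. It was -0.01 under cyclic loess for daidzein over PBS, 0.06 with no filter for PT over PBS, -0.13 with no filter for daidzein+PT over PBS and, for daidzein+PT over daidzein, -0.08 under quantile normalization and just above 0 with no filter. Counts at 1.5-fold moved mostly with the filter. The 43 genes without it include 15 well above background on no array, and the unfiltered share over all genes was not counted. With no filter on dim probes, so over 43 genes, 1 was higher and 4 lower in daidzein over PBS, 3 and 3 in PT over PBS, 2 and 5 in daidzein+PT over PBS, 1 and 6 in daidzein+PT over PT, and 3 and 5 in daidzein+PT over daidzein. Cyclic loess gave 1 higher in daidzein+PT over PBS. Col23a1 was below 1.5-fold under normexp, leaving 0 lower in daidzein+PT over PBS, over PT and over daidzein, and under the mean over probes, leaving 0 in daidzein+PT over daidzein. Apart from the filter, whose construction adds dim genes, the cause was not tested. No called gene changed sign. No paired analysis was possible because each group has 1 array and the labels carry no replicate numbers. Signal limits the 4 dim genes most, with an SD of a log2 difference of 0.33.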
